A study of Mus musculus with 12 samples.

Results

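The complement system genes were followed in the livers of septic mice through the 32 rows of the count table that carry the symbols C1qa, C1qb, C1qc, C1ra, C1s1, C2, C4a, C4b, Mbl1, Mbl2, Masp1, Masp2, Cfb, Cfd, Cfp, C3, Hc, C6, C7, C8a, C8b, C8g, C9, C4bp, Cfi, Serping1, Vtn, Clu, Cd55, Cd59a, C3ar1 and C5ar1. All 32 were found among the 25611 genes of the table, and Hc is the mouse gene of C5. Whole livers of 12 male C57BL/6J mice aged 8 to 10 weeks were sequenced, 4 mice per group, and every mouse was given subcutaneous saline. Sham mice had an abdominal incision, whereas CLP mice underwent cecal ligation and puncture, a surgical model of polymicrobial sepsis. CLP+DCA mice underwent CLP and received dichloroacetate (DCA), an inhibitor of pyruvate dehydrogenase kinase, by intraperitoneal injection of 25 mg/kg when 24 hr had passed since surgery. All livers were taken at 30 hr post-surgery, 6 hr after DCA in the treated mice, so that a single time point is described. What the sham and CLP mice received in place of DCA is not given in the sources used here.

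Complement is a cascade of plasma proteins, most of them made by hepatocytes, that marks microbes for uptake, attracts phagocytes and inserts pores into membranes. The classical pathway starts from C1q bound to antibody, the lectin pathway from mannose-binding lectins bound to sugars, and the alternative pathway from C3 itself with factor B and factor D, and all of them meet at the cleavage of C3. Cleavage of C5 then starts assembly of C6, C7, C8 and C9 into the membrane attack complex, while soluble and membrane-bound regulators restrain each step. In whole liver, fewer cells of a type and less RNA per cell cannot be told apart, and transcripts were measured, not the circulating proteins.

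Between 24436513 and 44266819 reads were counted per mouse, and CPM, the read counts of a gene scaled to the depth of its library, are given below on library sizes normalized by the trimmed mean of M values (TMM). The summed CPM of 6 hepatocyte markers ran from 58900 to 80600 in sham, 31200 to 44300 in CLP mice and 28000 to 53500 in CLP+DCA mice, with 1 of the 6 (Alb) called lower in CLP versus sham. Alb made up 66.1% to 72.5% of that sum in sham, and 4 of the 6 markers had negative fold changes in CLP (2 of them with groups apart) and 2, Apob (log2 fold change 0.26) and Hnf4a (0.05), positive ones. Without Alb, a sum taken after the values were seen, the ranges overlapped, at 19200 to 22200 CPM in sham and 15900 to 20500 in CLP. The summed CPM of 8 neutrophil markers ran from 6.14 to 8.77 in sham, 30.3 to 41.7 in CLP mice and 6.06 to 54.4 in CLP+DCA, with 1 of the 7 tested (Retnlg) called higher in CLP versus sham, and no marker of either list was at 0 in all mice. CLP+DCA replicate 3 stood apart from its group. On the first principal component of log2 CPM, which held 59.2% of the variance, it lay at 82.6, the other CLP+DCA mice between -28.9 and -16.4, CLP mice between 8.66 and 72.8, and sham mice between -40.6 and -33.1.

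The 32 genes together took 3.35% to 3.92% of all counted reads in sham mice, 4.20% to 5.09% in CLP mice and 4.02% to 4.34% in mice given DCA. C3 alone took 1.48% to 1.89%, 2.26% to 3.15% and 1.93% to 2.70% of the reads. Levels of different genes were compared as CPM per kb of the principal transcript. C3 was at 3024 ± 396 CPM per kb in sham (SD, n = 4), ahead of Vtn (vitronectin, a brake on the terminal complex) at 2125 ± 79.9 and Clu (clusterin) at 1122 ± 46.6, and the ranges of these 3 genes did not overlap. Serping1, the C1 inhibitor, followed at 754 ± 38.2 CPM per kb. The next genes in sham, from Cfb at 536 ± 39.5 through C4b at 475 ± 47.0 to Cfi at 385 ± 54.9 and C8a at 353 ± 29.3, had ranges that touched those of their neighbours. At the lower end stood the genes of the anaphylatoxin receptors and C7, with C5ar1 at 0.231, C7 at 0.266 and C3ar1 at 0.274 CPM per kb in sham. Between groups the order shifted most for Mbl2, whose rank among the 32 was 10 in sham mice, 18 after CLP and 13 with DCA, and for C4bp, whose ranks were 13, 7 and 8.

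**Figure D1:**
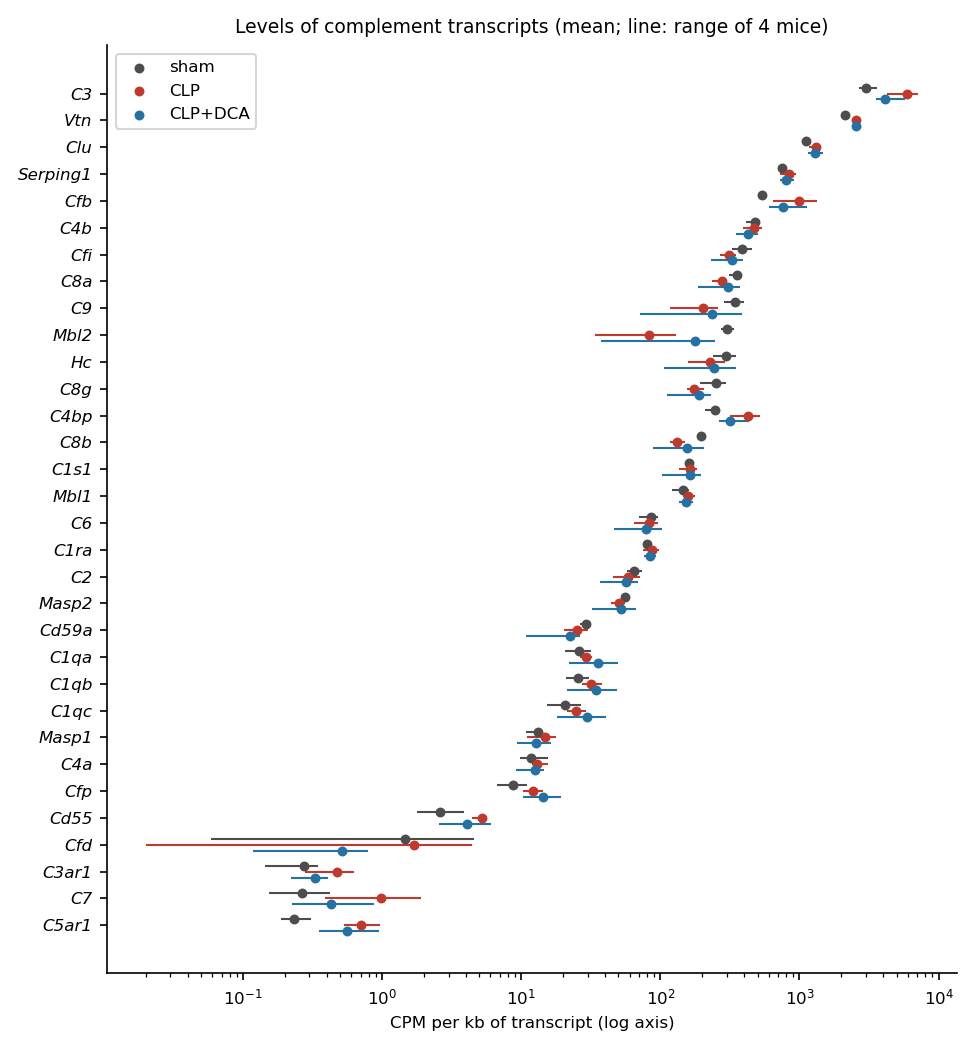
Levels of the 32 complement genes in CPM per kb of transcript (log axis), ordered by the sham mean, with a point for the mean of 4 mice and a line from the lowest to the highest mouse in each group. Levels span from about 0.231 (C5ar1) to 3024 (C3) in sham, and the line of Cfd in CLP starts at the left end because 1 CLP mouse had no read.

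To ask how sepsis altered complement transcripts, CLP mice were compared with sham mice. C3 and C5ar1 were the 2 of 32 genes past the FDR of 0.05, both higher in CLP, and 367 of 13190 tested genes (2.78%) were called in this comparison, 1.64% of all as higher. Groups did not overlap for 11 of 32 genes, against 26.5% of all tested genes: 7 were higher in every CLP mouse than in every sham mouse (C3, Cfb, C4bp, Vtn, Clu, Cd55 and C5ar1, against 12.2% of all genes) and 4 were lower (Mbl2, C8a, C8b and C9, against 14.2%). An unadjusted p under 0.05 was reached by 10 of 32 genes, against 28.6% of all genes. By the sign of the fold change, 20 of 32 genes were higher in CLP (51.9% of all genes), with a median log2 fold change of 0.16 over the 32 genes and 0.02 over all genes. With library size alone in place of TMM, 14 of 32 were higher and the medians moved to -0.03 and -0.16. The CLP and sham mice of Vtn, Clu and Cd55 then overlapped as well, so the separation of these genes rests on TMM. By role, genes of the alternative pathway (3 of 3), C3 and the receptors (2 of 2) had positive fold changes, against 51.9% of all genes. In the terminal pathway 1 of the 7 genes had a positive one, against the same 51.9%, and 6 had negative ones. Of these, 3 (C8a, C8b and C9) had groups apart, and none passed the FDR. These signs include Cfd (0.24 ± 1.21) and C6 (-0.05 ± 0.22), both of which changed sign when single mice were left out.

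The number past the FDR depended on which mice and which tool entered the fit. Without CLP+DCA replicate 3, a mouse outside this contrast, the log2 fold changes were nearly the same and 11 of 32 genes passed the FDR, against 23.8% of 13288 genes: 6 higher (12.2% of all genes), C3, Cfb, C4bp, C7, Cd55 and C5ar1, and 5 lower (11.5%), Mbl2, C8a, C8b, C8g and C9. With DESeq2 on all 12 mice, 8 of 32 passed (C3, C4bp, C5ar1, C7, Cd55, Cfb, Mbl2 and Vtn) against 1894 of the 14517 genes with an adjusted p (13.0%).

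**Figure D2:**
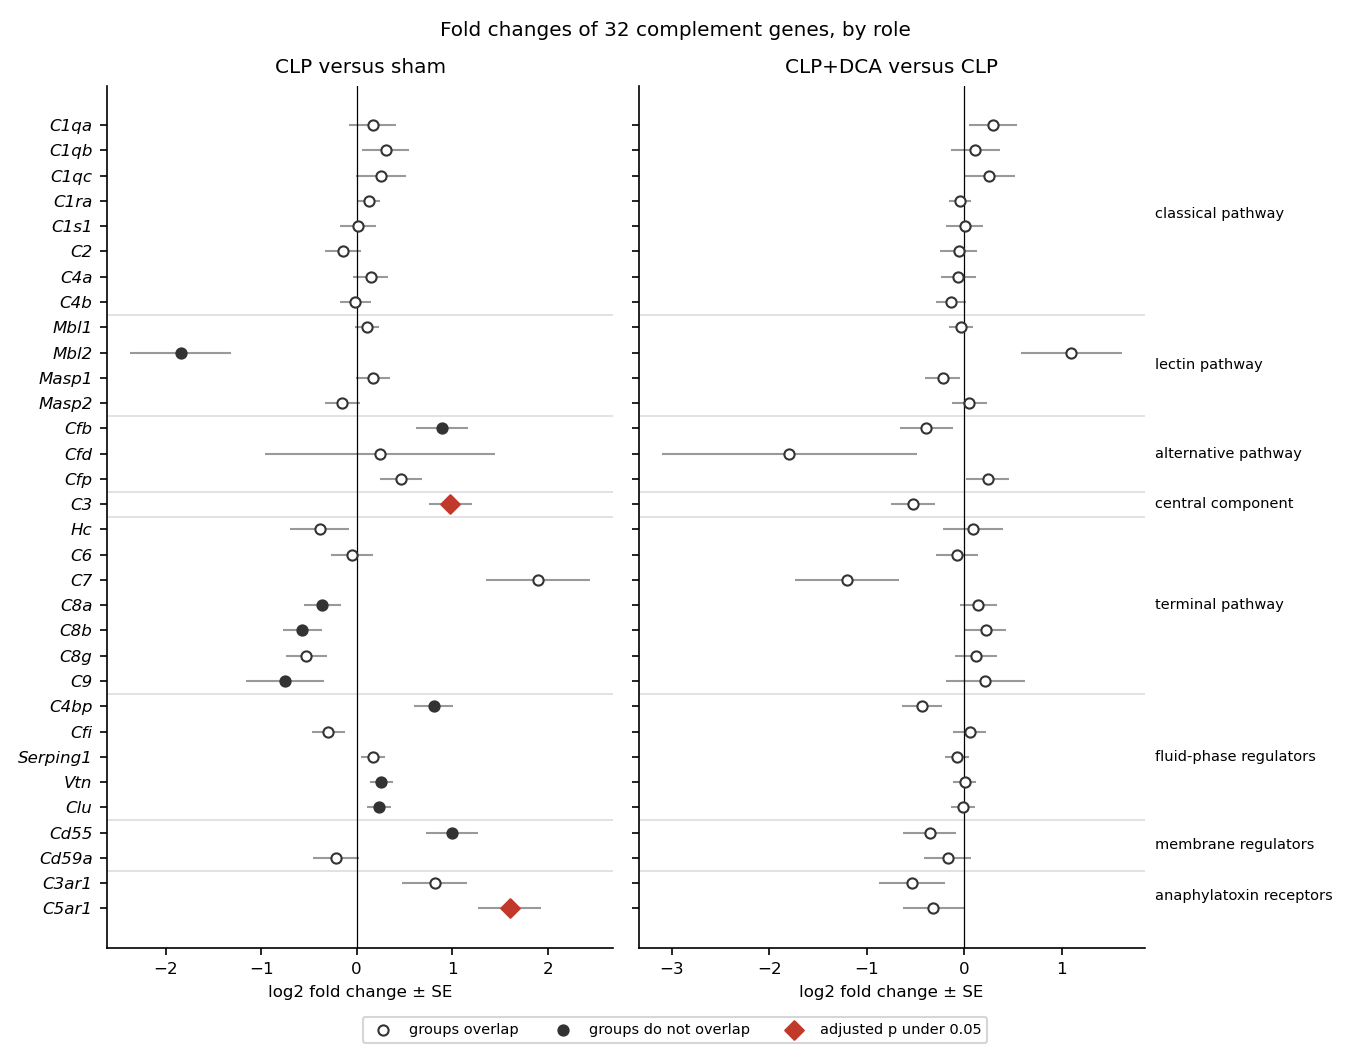
Log2 fold changes with SE of the 32 genes, grouped by role, for CLP versus sham (left) and CLP+DCA versus CLP (right), each from 4 against 4 mice. Diamonds mark adjusted p under 0.05 (C3 and C5ar1, left), filled circles genes whose groups do not overlap and open circles genes whose groups do, and in the right panel all 32 circles are open.

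C3, the component that all pathways cleave, lies at chr17:57203967-57228136 on the minus strand (mm10). The sham mice had 14359, 15561, 13824 and 18384 CPM, the CLP mice 28491, 36759, 21692 and 35654 and the CLP+DCA mice 18109, 18811, 29358 and 18907. All CLP mice lay above all sham mice, and 3 of the 4 CLP+DCA mice lay close together, near the highest sham mouse, whereas CLP+DCA replicate 3 lay among the CLP mice. C3 rose in CLP versus sham by 0.98 ± 0.22 (log2 fold change ± SE), 1.97-fold, with an adjusted p of 0.0463 in edgeR's quasi-likelihood test. The call was lost without any 1 of sham replicates 1 to 4, CLP replicates 1, 2 or 4, or CLP+DCA replicates 1 or 2, with log2 fold changes from 0.88 to 1.12 and adjusted p from 0.00533 to 0.129 over all 12 omissions.

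The 250 bases before the start of C3 are shown because this gene carries the rise, and those of Mbl2 because it had the most negative fold change of the 32. They are RefSeq sequences on GRCm38.p6, the assembly named mm10 in the files, at chr17:57228137-57228386 (minus strand) and chr19:30232678-30232927 (plus strand), written in the direction of the gene. Capitals mark matches on either strand to TTGCNNAA (C/EBP-type) and to GGGA followed after 4 bases by CC (NF-kappaB-type), letters of factors known from hepatic acute phase genes, and TTCNNNGAA (STAT-type) was searched too.
C3: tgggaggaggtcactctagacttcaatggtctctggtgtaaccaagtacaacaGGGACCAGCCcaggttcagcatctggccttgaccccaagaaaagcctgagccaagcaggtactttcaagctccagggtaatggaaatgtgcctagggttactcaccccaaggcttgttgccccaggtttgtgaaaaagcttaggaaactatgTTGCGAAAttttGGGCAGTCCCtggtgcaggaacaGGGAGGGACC
Mbl2: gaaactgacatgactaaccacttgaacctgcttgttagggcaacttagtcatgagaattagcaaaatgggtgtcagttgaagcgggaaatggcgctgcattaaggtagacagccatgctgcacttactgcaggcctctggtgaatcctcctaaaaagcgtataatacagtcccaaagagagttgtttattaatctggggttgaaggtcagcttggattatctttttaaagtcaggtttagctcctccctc
C3 held 1 C/EBP-type match starting 45 bases upstream of the start and 3 NF-kappaB-type matches starting 197, 33 and 10 bases upstream, while the Mbl2 window held no match to the 3 motifs. The Mbl2 window ends at chr19:30232927, whereas the counted gene starts at 30232957, and the bases between them were not searched. Of 32851 RefSeq promoters of this length, 9.56% held a C/EBP-type, 17.6% an NF-kappaB-type and 7.02% a STAT-type match. Among the 25 entries for 23 of the 32 genes, 3, 5 and 3 did. A match describes letters only, and no binding was measured.

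Cfb (factor B, the protease subunit of the alternative C3 convertase) lies at chr17:34856374-34862514 on the minus strand. It was measured at 1571, 1551, 1374 and 1376 CPM in sham, 1938, 3650.0, 1775 and 3546 in CLP mice and 1641, 1820.2, 3096 and 1780.1 in CLP+DCA mice. Every septic mouse, treated or not, exceeded every sham mouse, and CLP replicates 2 and 4 with CLP+DCA replicate 3 were the 3 highest. The log2 fold change in CLP was 0.89 ± 0.27 (adjusted p = 0.0768, and 0.0167 without CLP+DCA replicate 3). C2, the classical pathway counterpart of factor B, lies 87 bp from Cfb on the same strand and was at 153 to 195 CPM in sham and 121 to 187 in CLP (log2 fold change -0.14 ± 0.19). Per kb, Cfb exceeded C2 by 7.49 to 9.40 times in sham, 11.9 to 22.7 times in CLP, and 10.3, 10.8, 30.6 and 9.34 times in CLP+DCA replicates 1 to 4, so that for the ratio as well sham and CLP did not overlap.

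Cfp, properdin, which stabilizes the alternative convertase, is known from myeloid cells. It was at 15.2, 11.0, 18.0 and 13.3 CPM in sham, 23.6, 18.3, 16.7 and 20.5 in CLP mice and 27.8, 31.3, 16.8 and 17.5 in CLP+DCA, with overlapping groups and an adjusted p of 0.187 for CLP versus sham. Cfd (adipsin, the factor D protease, known from adipose tissue) varied within every group. Its levels were 0.297, 4.21, 0.854 and 0.0547 CPM in sham, 2.14, 0.0478, 4.06 and 0 in CLP mice and 0.478, 0.571, 0.108 and 0.731 in CLP+DCA mice, and CLP replicate 4 had 0 reads, which allows up to 3. The 3 mice above 2 CPM (sham replicate 2, CLP replicates 1 and 3) were also the 3 with the highest summed CPM of the adipocyte markers Adipoq, Plin1, Lep and Retn, 0.643, 0.921 and 1.91. That sum was 0.350 in CLP+DCA replicate 4 and 0 in the other 8 mice, no marker was at 0 in all 12 mice, and none of the 4 passed the filter on low counts. The part of adipocyte RNA in the Cfd values was not tested, and no comparison of Cfd passed the FDR (adjusted p = 0.906 for CLP versus sham).

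**Figure D3:**
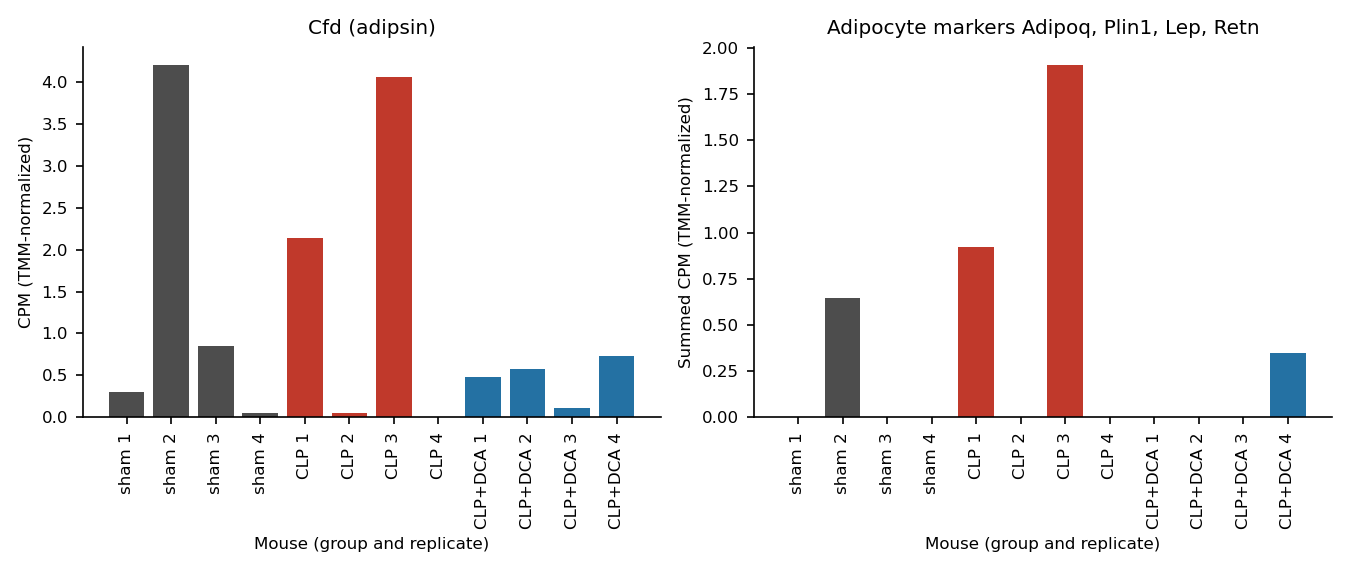
Cfd (left) and the summed adipocyte markers (right) in each of the 12 mice, in CPM on bars that start at 0, coloured by group. The 3 tallest bars of both panels belong to the same mice, sham replicate 2 and CLP replicates 1 and 3, and no marker read was counted in 8 mice.

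Both mannose-binding lectins, which recognize microbial sugars and start the lectin pathway, were abundant in sham, but their values in septic mice differed. Mbl2 (chr19:30232957-30239682, plus strand) had 329, 307, 299 and 368 CPM in sham, 141, 37.2, 125 and 59.7 in CLP mice and 229.6, 268, 41.0 and 238 in CLP+DCA mice. The lowest sham mouse was above the highest septic mouse, 3 of 4 CLP+DCA mice lay between the CLP and the sham ranges, and CLP+DCA replicate 3 was inside the CLP range. The log2 fold change of Mbl2 in CLP versus sham was -1.84 ± 0.53, 0.278 times the sham level, and missed the FDR (adjusted p = 0.0701). It passed without CLP+DCA replicate 3 (log2 fold change -1.84, adjusted p = 0.00691) and in DESeq2 on all 12 mice (-1.85, adjusted p = 0.00466).

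Mbl1 was at 241, 253, 224 and 189.9 CPM in sham and 226, 279, 233 and 242 in CLP, with overlapping groups and a log2 fold change of 0.11 ± 0.12. The ratio of Mbl2 to Mbl1 per kb was 1.74 to 2.78 in sham, 0.191 to 0.894 in CLP, and 1.56, 1.43, 0.247 and 1.43 in CLP+DCA replicates 1 to 4. Mbl2 was thus the more abundant lectin transcript in all sham mice and in 3 CLP+DCA mice, and Mbl1 in all CLP mice and CLP+DCA replicate 3. The 2 genes share no 100-base stretch of transcript. Of the lectin pathway proteases, Masp1 ran from 57.6 to 77.1 CPM in sham and 58.6 to 94.2 in CLP, and Masp2 from 160.4 to 181 and 135 to 172, both with overlapping groups. Masp2 overlaps Tardbp by 3099 bp on the opposite strand, and reads of such pairs cannot be told apart without strand.

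The classical pathway showed no gene past the FDR and no gene whose CLP and sham groups were apart, with log2 fold changes of its 8 genes from -0.14 to 0.30 (median 0.14). C1qa, C1qb and C1qc encode the chains of C1q, the antibody sensor known in liver from Kupffer cells, and lie next to each other on chromosome 4. C1qa was at 29.8, 21.6, 33.0 and 24.1 CPM in sham, 33.6, 28.8, 31.6 and 27.7 in CLP mice and 48.4, 51.5, 23.0 and 26.4 in CLP+DCA mice. C1qb and C1qc followed the same order of mice at the top, with CLP+DCA replicates 1 and 2 the highest at 47.3, 52.7, 26.0 and 23.3 CPM for C1qb and 45.8, 49.0, 21.8 and 25.5 for C1qc in CLP+DCA replicates 1 to 4. These 2 mice also had the highest sums of 7 Kupffer cell markers, 357 and 342 CPM, against 137 to 233 in sham and 214 to 287 in CLP. The markers in this sum differed in CLP versus sham. Marco had a log2 fold change of 2.56 ± 0.65 with groups apart (adjusted p = 0.0554), and Clec4f had one of -0.28 ± 0.30 with overlapping groups. None of the 7 Kupffer markers was called in any comparison or at 0 in all mice, and their part in the C1q values was not tested.

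The proteases and substrates of the classical pathway are hepatocyte products. C1ra was at 223 to 257 CPM in sham and 224 to 292 in CLP, C1s1 at 441 to 518 and 403 to 544. C4b, the main C4 gene, was at 2762, 2751, 2231 and 2477 CPM in sham and 2773, 2117, 2349 and 2891 in CLP, with a log2 fold change of -0.01 ± 0.16. C4a (the Slp copy) was at 52.2 to 84.1 CPM in sham and 64.0 to 83.1 in CLP. Values of these copies are uncertain, since 16.5% of the 100-base windows of C4a also occur in C4b, 34.5% of those of C1ra in C1rb and 7.9% of those of C1s1 in C1s2.

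**Figure D4:**
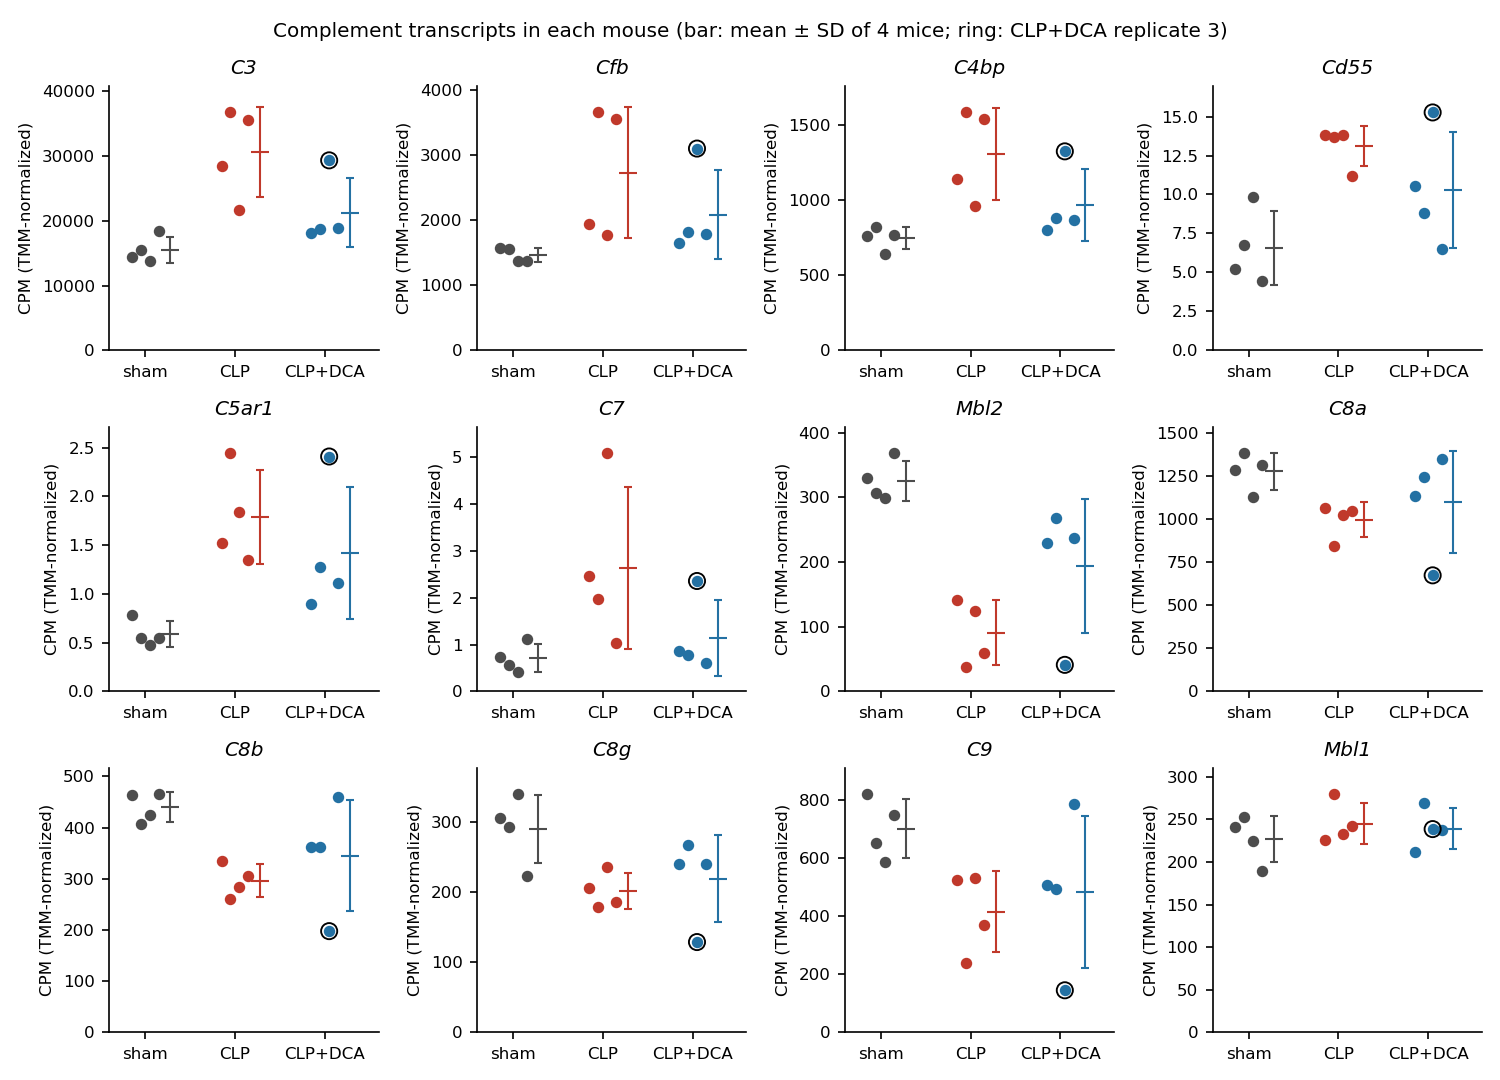
CPM of 12 complement genes in each mouse (axes start at 0), with the mean ± SD of 4 mice beside the points and a ring around CLP+DCA replicate 3. In C3, Cfb and C4bp the ringed mouse lies among the CLP mice and in Mbl2 within their range, whereas in C8a, C8b, C8g and C9 it lies below all CLP mice.

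In the terminal pathway, the genes of the late pore components were lower in CLP and C7 was higher, and none passed the FDR. C9, the pore-forming subunit, was at 819.6, 651, 588 and 748 CPM in sham, 525, 239, 532 and 369 in CLP mice and 509, 493, 145 and 785 in CLP+DCA, a log2 fold change of -0.75 ± 0.41 in CLP (adjusted p = 0.235). C8b had 464, 408, 424 and 465 CPM in sham and 336, 261, 284 and 306 in CLP, a log2 fold change of -0.57 ± 0.21 (adjusted p = 0.107). C8a, its neighbour on chromosome 4, had 1287, 1381, 1129 and 1311 CPM in sham and 1067, 846, 1024 and 1045 in CLP (-0.36 ± 0.19, adjusted p = 0.233). For these 3 genes every CLP mouse lay below every sham mouse, and CLP+DCA replicate 3 lay below every other mouse, at 145, 198 and 673 CPM.

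C8g encodes the third chain of C8, a lipocalin. It was at 306, 293, 339 and 223 CPM in sham and 206, 178, 236 and 186 in CLP, where 1 CLP mouse reached above the lowest sham mouse, with a log2 fold change of -0.53 ± 0.21 (adjusted p = 0.134). C8g overlaps Fbxw5 by 970 bp on the opposite strand. Without CLP+DCA replicate 3 the 4 genes passed, with adjusted p of 0.0462 for C9, 0.0451 for C8a, 0.00867 for C8b and 0.0197 for C8g. The hepatocyte marker sums given above were lower in all CLP mice than in all sham mice with Alb and overlapped without it, and their part in these values was not tested.

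Hc, which gives C5, was at 1293 to 1898 CPM in sham and 861 to 1589.5 in CLP, and C6 at 200.3 to 277 and 187 to 274, both with overlapping groups and log2 fold changes of -0.39 ± 0.31 and -0.05 ± 0.22. C7, which anchors the nascent complex to the membrane, was scarce, with 13 to 41 reads in sham and 23 to 210 in CLP. Its levels were 0.743, 0.569, 0.411 and 1.12 CPM in sham, 2.46, 1.96, 5.07 and 1.03 in CLP mice and 0.861, 0.772, 2.35 and 0.604 in CLP+DCA, so that CLP replicate 4 lay below sham replicate 4. The log2 fold change in CLP was 1.90 ± 0.55 (adjusted p = 0.0705), and 1.36 without CLP replicate 3, the highest mouse. The 2 mice with the highest sums of 5 stellate cell and fibroblast markers were CLP replicate 3 (202 CPM) and CLP+DCA replicate 3 (210 CPM), against 68.0 to 106 in sham and 90.4 to 139 in the other CLP mice. CLP replicate 3 also had the highest sums of the mesothelium (6.60 CPM), cholangiocyte (7.59), adipocyte (1.91) and pancreatic acinar (1.69) markers, and CLP replicate 4, the CLP mouse lowest in C7, had the lowest mesothelium sum (0.179). Other mice did not follow this order. Sham replicate 2 had a mesothelium sum of 3.64 with C7 at 0.569 CPM, and CLP+DCA replicate 3 one of 0.893 with C7 at 2.35. None of the tested markers of these 5 lists was called, and no marker of them was at 0 in all mice. Of the 4 adipocyte markers 0 were tested, and of the 4 pancreatic acinar markers 1. The part of these cell types in C7 was not tested.

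Regulators in plasma were mostly higher in CLP, without passing the FDR. C4bp, which restrains the classical C3 convertase, was at 763, 820.1, 641 and 767 CPM in sham, 1142, 1584, 963 and 1541 in CLP mice and 804, 883, 1325 and 865 in CLP+DCA mice. Its groups were apart in CLP versus sham, with a log2 fold change of 0.81 ± 0.20 (adjusted p = 0.055), and CLP+DCA replicates 1, 2 and 4 lay between 804 and 883 CPM, at or just above sham. Vtn was at 3689, 3715, 3541 and 3881 CPM in sham, 4172, 4415, 4273 and 4861 in CLP mice and 4176, 4743, 4671 and 4169 in CLP+DCA. On these TMM-normalized values every septic mouse, with or without DCA, exceeded every sham mouse. With library size alone, CLP replicate 2 (92298 of 24436513 reads) fell below every sham mouse.

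The log2 fold change of Vtn was 0.26 ± 0.12 in CLP and 0.26 ± 0.12 in CLP+DCA versus sham. Clu had the same arrangement, 1905 to 2082 CPM in sham, 2128 to 2564 in CLP mice and 2092 to 2664 in CLP+DCA, with log2 fold changes of 0.23 ± 0.13 and 0.21 ± 0.13. Serping1 was at 1236 to 1389 CPM in sham and 1289.6 to 1666 in CLP, and Cfi, the protease that inactivates C3b and C4b, at 681 to 954 and 561 to 721. Both of these overlapped between groups, and Cfi was the 1 fluid-phase regulator with a negative fold change (-0.30 ± 0.17).

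Of the membrane regulators, Cd55 (decay-accelerating factor, chr1:130439026-130462744, minus strand) was at 5.20, 6.75, 9.84 and 4.48 CPM in sham, 13.8, 13.7, 13.8 and 11.2 in CLP mice and 10.5, 8.80, 15.3 and 6.48 in CLP+DCA mice. The CLP mice stood close together above all sham mice, with a log2 fold change of 1.0 ± 0.27 (adjusted p = 0.0652), whereas the CLP+DCA mice spread from sham levels to the highest of all 12 mice. With library size alone, CLP replicate 4 (249 of 25683615 reads) fell below sham replicate 3 (311 of 29506505 reads). Cd55 shares 6.86% of its 100-base windows with Cd55b. Cd59a, which blocks insertion of C9, was at 47.8 to 57.5 CPM in sham and 36.7 to 54.5 in CLP, a log2 fold change of -0.22 ± 0.24. The 250 bases before the start of Cd55, at chr1:130462745-130462994 (minus strand, GRCm38.p6, RefSeq), are shown with their NF-kappaB-type match in capitals, starting 61 bases upstream. Of the 9 genes with separated groups and a promoter entry, C3 and Cd55 held such a match, against 17.6% of all promoters. Among the same 9, C3 and C9 held a C/EBP-type match and C8a a STAT-type match, with C8a and C9 lower in CLP. A link between matches and fold changes was not tested. Cfb and Clu, the other 2 genes with separated groups, were not searched.
Cd55: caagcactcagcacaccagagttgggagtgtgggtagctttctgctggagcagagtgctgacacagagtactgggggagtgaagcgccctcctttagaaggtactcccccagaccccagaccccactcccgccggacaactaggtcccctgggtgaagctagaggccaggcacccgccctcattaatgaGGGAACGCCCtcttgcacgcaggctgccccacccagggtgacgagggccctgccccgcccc

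C5ar1, the receptor of the anaphylatoxin C5a on phagocytes (chr7:16246743-16259540, minus strand), had 15 to 22 reads per sham mouse and 30 to 76 per CLP mouse. Its levels were 0.781, 0.544, 0.475 and 0.547 CPM in sham, 1.52, 2.44, 1.84 and 1.35 in CLP mice and 0.893, 1.28, 2.41 and 1.11 in CLP+DCA mice. All 8 septic mice were above all 4 sham mice. C5ar1 rose in CLP versus sham by 1.60 ± 0.33 (log2 fold change ± SE), 3.04-fold, with an adjusted p of 0.039 in edgeR's quasi-likelihood test. The call was lost without any 1 of sham replicates 1 to 4, CLP replicates 1, 2 or 4, or CLP+DCA replicate 2, with log2 fold changes from 1.43 to 1.76 and adjusted p from 0.00316 to 0.113 over the 12 omissions. The neutrophil marker sums given above were at least 30.3 CPM in every CLP mouse and in CLP+DCA replicate 3 and at most 13.4 in every other mouse, although the neutrophil marker Ly6g had a negative fold change in CLP (-0.78, adjusted p = 0.136). The summed CPM of 4 monocyte markers (3 tested, none called) was 4.38 to 5.91 in sham, 10.3 to 13.5 in CLP mice, 18.4 in CLP+DCA replicate 3 and 5.88 to 8.70 in the other CLP+DCA mice. The part of these cells in C5ar1 was not tested. C3ar1, the receptor of C3a, was at 1.41, 0.618, 1.20 and 1.48 CPM in sham and 2.69, 1.20, 2.71 and 1.57 in CLP, with overlapping groups (log2 fold change 0.82 ± 0.34, adjusted p = 0.144).

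Of 28 other complement genes listed from general knowledge, 27 were in the table and 21 were tested. In CLP versus sham 2 of the 21 passed the FDR, 1 in each direction, against 2.78% of all genes. Itgam, the alpha chain of complement receptor 3 on neutrophils and macrophages, was at 0.781, 0.693, 1.64 and 0.957 CPM in sham, 10.2, 15.1, 8.82 and 9.65 in CLP mice and 2.68, 2.96, 23.8 and 1.49 in CLP+DCA mice, and rose by 3.42 ± 0.81 (adjusted p = 0.0482). C1qbp, a largely mitochondrial protein named for binding C1q, was at 54.8, 51.6, 58.4 and 53.3 CPM in sham and 38.5, 45.2, 42.7 and 36.7 in CLP, and fell with a log2 fold change of -0.42 ± 0.10 (adjusted p = 0.0486). In 7 of the 21 genes CLP and sham did not overlap (26.5% of all genes), 4 higher (12.2%) and 3 lower (14.2%), and the median log2 fold change was 0.11. None of the 21 passed in CLP+DCA versus CLP or in CLP+DCA versus sham in edgeR (0.00758% and 0.0379% of all genes). An unadjusted p under 0.05 was reached by 2 of the 21 in each, against 1319 and 1714 of the 13190 tested genes.

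To ask whether DCA altered complement transcripts in septic mice, CLP+DCA was compared with CLP. No gene of the 32 passed the FDR in edgeR or in DESeq2, against 0.00758% of 13190 genes in edgeR, and the groups overlapped for all 32, against 4.37% of all genes without overlap. An unadjusted p under 0.05 was reached by C3 (log2 fold change -0.53 ± 0.22, adjusted p = 0.467) and C7 (-1.20 ± 0.53, adjusted p = 0.491), both lower with DCA (4.94% of all genes). Mbl2 was at 1.10 ± 0.52 (adjusted p = 0.503), C4bp at -0.43 ± 0.20 and Cfb at -0.39 ± 0.27 (-0.64 without CLP+DCA replicate 3). By sign, 14 of 32 genes were higher with DCA (51.6% of all genes), with medians of -0.04 over the 32 and 0.01 over all genes, which moved to 0.09 and 0.12 with library size alone.

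CLP+DCA replicate 3 lay outside the range of the other 3 CLP+DCA mice in 26 of 32 genes, above them in 6 and below them in 20. Over the 11 genes whose CLP and sham groups did not overlap, CLP+DCA replicate 3 lay within or beyond the CLP range in 10, and replicates 1, 2 and 4 in 3, 4 and 2. Replicates 1, 2 and 4 lay in or beyond the sham range in 3, 2 and 4 of the 11 and between the ranges in 5 each. The matching shares over all tested genes were not counted. CLP+DCA replicate 3 also stood apart over all tested genes, at 82.6 on the first principal component. These counts are therefore not a result about complement genes in particular. Without replicate 3, Mbl2 passed the FDR, higher with DCA (log2 fold change 1.43, adjusted p = 0.0498, against 2.01% of 13288 genes called higher). This mouse was the lowest of its group in Mbl2 (41.0 CPM), so that leaving it out raises this fold change. Leaving out any other single mouse put no gene of the 32 past the FDR. Without replicate 3, C3 had a log2 fold change of -0.72 (adjusted p = 0.0545), C7 -1.84 (0.0546), C4bp -0.62 (0.0598) and C8b 0.41 (0.0733). Why this mouse differs was not tested, and its group has 3 mice without it.

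**Figure D5:**
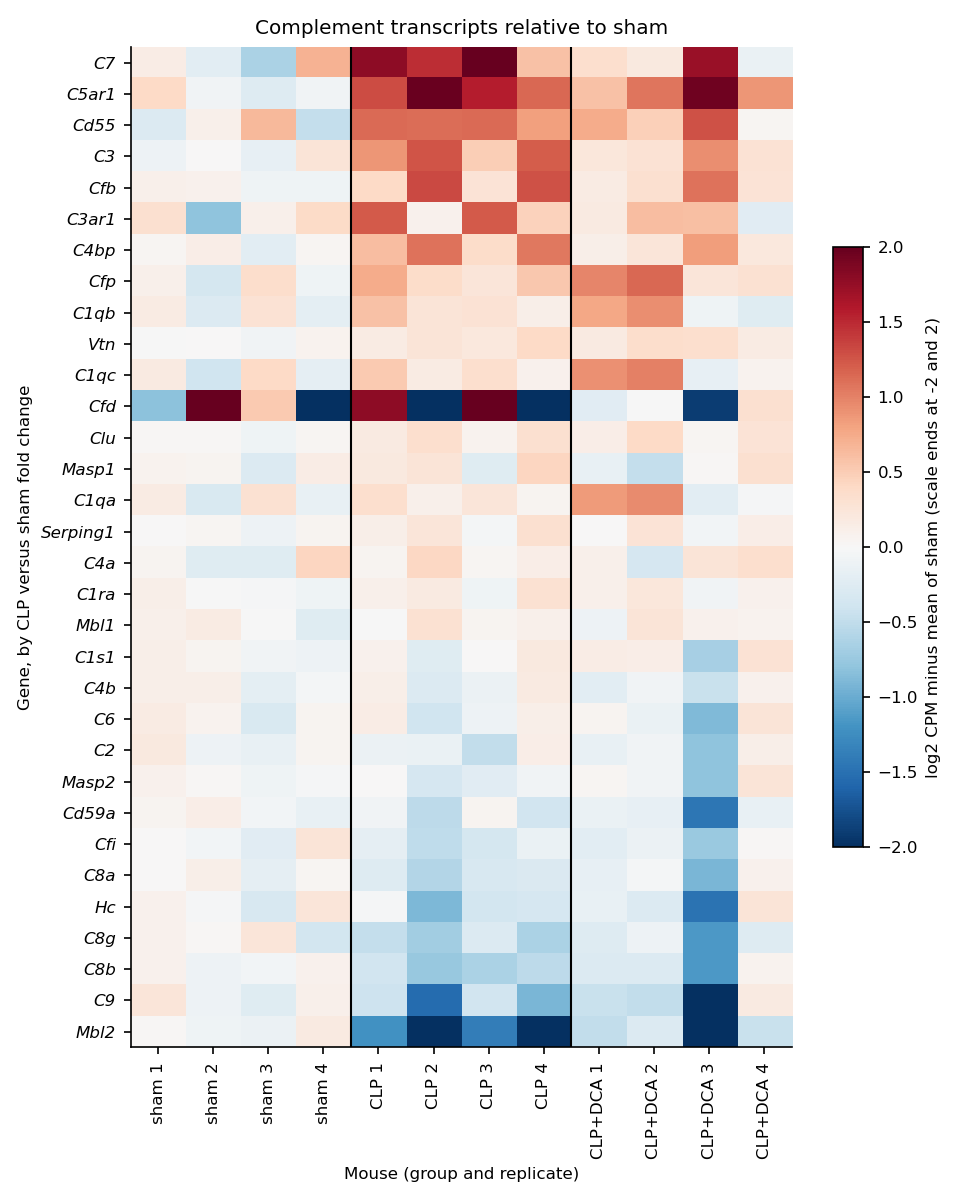
Log2 CPM of the 32 genes in each mouse minus the mean of the 4 sham mice, with genes ordered by the CLP versus sham fold change, from C7 to Mbl2, and colours that end at -2 and 2. In the column of CLP+DCA replicate 3, C3, Cfb, C4bp and Mbl2 resemble the CLP columns. In other genes, among them C1s1, C2, Hc, C6, Masp2, Cd59a and C9, this mouse lies below every CLP mouse. Its C9 and Mbl2 are at the lower end of the scale, while the columns of CLP+DCA replicates 1, 2 and 4 are paler.

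CLP+DCA was also set against sham, a comparison that shares the sham mice with CLP versus sham. No gene of the 32 passed the FDR in edgeR, against 0.0379% of all genes, and 4 had an unadjusted p under 0.05, all higher (8.14% of all genes): C5ar1 (log2 fold change 1.29 ± 0.33), Cfp (0.70 ± 0.22), Cd55 (0.65 ± 0.27) and Vtn (0.26 ± 0.12). DESeq2 on all 12 mice called C5ar1 (adjusted p = 0.0356) and Vtn (adjusted p = 0.0424), against 247 of the 13481 genes with an adjusted p (1.83%), and neither was called in DESeq2 on the 8 mice. Groups did not overlap for 5 of 32 genes, against 9.76% of all genes, with Cfb, Vtn, Clu and C5ar1 higher (4.78% of all genes) and Mbl2 lower (4.97%) in CLP+DCA. With library size alone, the CLP+DCA and sham mice of Clu overlapped. Side by side, the log2 fold changes versus sham were 0.98 ± 0.22 in CLP and 0.46 ± 0.22 in CLP+DCA for C3, and -1.84 ± 0.53 and -0.75 ± 0.51 for Mbl2. For C5ar1 they were 1.60 ± 0.33 and 1.29 ± 0.33. Without CLP+DCA replicate 3, the log2 fold changes in CLP+DCA versus sham were nearer to 0 for C3 (0.26), Mbl2 (-0.41) and C5ar1 (0.90). They were then 0.39 for Cd55 and 0.25 for Cfb, against 0.65 ± 0.27 and 0.51 ± 0.27 with it, and 0.83 for Cfp, 0.24 for Vtn and 0.27 for Clu, and again none of the 32 genes passed the FDR. The differences between CLP and CLP+DCA are the CLP+DCA versus CLP contrasts, given above for C3 and Mbl2. For C5ar1 that contrast was -0.32 ± 0.31 (adjusted p = 0.763 in edgeR). None of them passed the FDR with all 12 mice.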

How the data were processed

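Whole-liver RNA of 12 mice was measured, each mouse 1 biological replicate of its labelled group. The authors prepared poly(A) libraries with a kit that does not mark strand, used STAR 2.5 to align reads to mm10 and featureCounts (Subread 1.5.0-p1) to assign them to genes, and deposited the unnormalized counts of 25611 genes. The annotation and strand setting are not given in the sources used here.

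Counts were analysed in R 4.3.3. Genes were filtered by filterByExpr of edgeR 4.0.16 (minimum count 10), which left 13190, normalized by TMM and fitted with a robust quasi-likelihood model of all 12 mice. The 3 contrasts between groups were tested at a Benjamini-Hochberg FDR of 0.05 over all tested genes. The SE is the log2 fold change divided by the square root of F. All 32 complement genes passed the filter. CPM per kb used the length of the GENCODE M21 principal transcript (C4a: longest transcript). Depth was 24436513 to 44266819 reads, and counting error, with no molecular identifiers, is a lower limit of the error. DESeq2 1.42.0, edgeR on 8 mice, RLE, library size alone, other filters, no robust prior, a replicate block and omission of each mouse were alternatives. Code was tested on simulated data. The genes and lists were chosen with earlier results of these data known. Named with values are all 32 genes, other complement genes past the FDR, and cell markers. Promoters came from RefSeq (GRCm38.p6), 23 of 32 genes matched, and motifs were searched on both strands of 250 bases.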

Additional observations from a re-analysis of the deposited data

Results flagged for a closer look

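In groups of 4 mice, a mouse was singled out when its gap to the nearest other mouse, divided by the range of the group, exceeded Dixon's critical value. Of 96 groups (32 genes in 3 groups), 8 met this, where chance gives about 1 in 20, and 6 of the 8 concern CLP+DCA replicate 3. In that mouse Mbl2 (ratio 0.918, 41.0 CPM), C1s1 (0.839, 302 CPM), C8g (0.85, 129 CPM) and Cd59a (0.975, 19.4 CPM) were the lowest of the CLP+DCA group. C3 (0.911, 29358 CPM) and Cfb (0.836, 3096 CPM) were the highest of that group in the same mouse. Clu was lowest in sham replicate 3 (0.917, 1905 CPM), and Cd55 was lowest in CLP replicate 4 (0.947, 11.2 CPM).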

How the results depend on the processing

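In CLP versus sham, the complement genes past the FDR numbered 2 with all 12 mice, 8 and 13 in DESeq2 on 12 and 8 mice, 9 in edgeR on the 8 mice compared, 0 without a filter on low counts, and 0 to 11 when each mouse was left out. All genes past the FDR numbered 367, and 1894, 3428, 2387 and 122 under the same alternatives, or 10 to 3157 when each mouse was left out. With library size alone, 122 genes were higher and 147 lower, against 216 and 151. The cause was not tested. In CLP+DCA versus CLP, members numbered 0 under all alternatives except the omission of CLP+DCA replicate 3, which gave 1 (range 0 to 1), and all genes 1, with 136 and 80 in DESeq2 on 12 and 8 mice, 0 in edgeR on 8 mice, and 0 to 616 over omissions. In CLP+DCA versus sham, members numbered 0, or 2 in DESeq2 on 12 mice, and all genes 5, with 247 and 169 in DESeq2, 0 in edgeR on 8 mice, 3 with library size alone, and 1 to 11 over omissions. No complement gene was removed by the filter on low counts, so the planned prior count of 0.5 gave no value, and with 1 CPM in every mouse of a group 30 of the 32 were tested.

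Same-numbered mice deviated together (r over 0.1) in 1 of 12 pairs (CLP replicate 1 and CLP+DCA replicate 1, r = 0.55), against 10 of 36 other pairs. This count gave no sign of pairing by number but cannot exclude it. The largest r, 0.704, was between CLP replicate 2 and CLP+DCA replicate 3, and such large deviations of single mice can hide a weaker shared effect. With the replicate block, members past the FDR numbered 0 in all 3 comparisons, and all genes 46, 4 and 0 in CLP versus sham, CLP+DCA versus CLP and CLP+DCA versus sham.

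Log2 fold changes near 0 turned sign in some settings. With library size alone, these were C1ra -0.057, C1s1 -0.157, C4a -0.033, Mbl1 -0.073, Masp1 -0.016 and Serping1 -0.017 in CLP versus sham, and C1ra 0.089, C2 0.087, C4a 0.061, Mbl1 0.085, C6 0.056, Serping1 0.057 and Clu 0.112 in CLP+DCA versus CLP, and C1s1 -0.024 in CLP+DCA versus sham. In CLP+DCA versus CLP, C1s1 and Vtn were also at -0.001 and -0.002 with RLE and at -0.004 and -0.003 with 1 CPM in every mouse of a group, and Vtn at 0 in DESeq2 on 12 mice. With the replicate block, C1s1 was at -0.021 in CLP+DCA versus CLP and -0.009 in CLP+DCA versus sham. When each mouse was left out, the ranges that crossed 0 in CLP versus sham were C1s1 -0.048 to 0.092, C4b -0.084 to 0.063, Cfd -0.758 to 2.012 and C6 -0.141 to 0.053. In CLP+DCA versus CLP they were C1qb -0.111 to 0.286, C1ra -0.107 to 0.021, C1s1 -0.096 to 0.173, C2 -0.173 to 0.1, C4a -0.145 to 0.048, Mbl1 -0.109 to 0.034, Masp2 -0.086 to 0.228, Hc -0.152 to 0.333, C6 -0.223 to 0.112, C8g -0.004 to 0.307, C9 -0.121 to 0.518, Cfi -0.044 to 0.189, Vtn -0.042 to 0.051, Clu -0.094 to 0.037 and Cd59a -0.266 to 0.059. In CLP+DCA versus sham they were C1s1 -0.082 to 0.189, C4a 0 to 0.251, Mbl1 -0.003 to 0.13, Masp1 -0.191 to 0.08, Masp2 -0.237 to 0.078, Cfd -1.95 to 0.228 and C6 -0.274 to 0.063. Cfd, C7, C3ar1 and C5ar1 rest on at most 210 reads in a mouse, which limits their precision.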

Other observations

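Within the C4 locus, C4a took 1.87% to 3.28% of the reads of C4a and C4b together in sham, 2.28% to 3.78% in CLP mice and 1.99% to 3.81% in CLP+DCA mice. Itgb2, the beta chain paired with Itgam, was at 4.98, 2.65, 4.75 and 4.07 CPM in sham, 10.4, 13.6, 9.04 and 9.92 in CLP mice and 9.35, 7.96, 16.3 and 3.94 in CLP+DCA mice, with a log2 fold change of 1.39 ± 0.36 in CLP versus sham (adjusted p = 0.0577). It missed the FDR and is named after its values were seen. The C/EBP-type letters were found in the windows of C1s1, C3 and C9, the NF-kappaB-type letters in those of C1qb, C1qc, C1s1, C3 and Cd55, and the STAT-type letters in those of C7, C8a and Masp2.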
